A study of Mus musculus with 4 samples.

Results

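The genes described here are 39 genes of autophagy and of the lysosome, set beside the 19505 genes that carried a symbol on the array. They were chosen by name, with a rule that uses no measured value but with earlier results of these data known. Of the 39 genes, 37 were measured, each by 1 transcript cluster (the set of probes that reads a transcript), and Optn and Ctsd were not analysed here. They fall into 20 autophagy genes (initiation, conjugation and cargo receptors, 19 measured), the transcription factor Tfeb, and 18 lysosomal genes (membrane proteins, cathepsins and other luminal proteins, 17 measured). RNA came from the brain cortex of male SAMR1 mice, the normally ageing line among the senescence-accelerated mouse strains. The TCQA group was dosed orally with tricaffeoylquinic acid, a polyphenol found in plants, at 5 mg/kg daily over 1 month that began at 11 months of age, and the water group was given MilliQ water. Both groups had been kept singly for 4 months from an age of 7 months, so that a shared history of single housing underlies the comparison. Each group had 2 Clariom S arrays, 4 in all, and whether an array carried 1 animal or several pooled animals is not stated in the labels. The p-values therefore reflect the spread between these arrays alone, part or all of which may be technical.

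Macroautophagy encloses a portion of cytoplasm in a double membrane, the autophagosome, and delivers it to the lysosome for breakdown. A kinase complex and a lipid kinase complex start the membrane, a pair of ubiquitin-like conjugation systems attach small proteins to it, and receptors tie cargo to those proteins. The lysosome supplies an acid lumen with proteases, glycosidases and lipid-handling proteins, and neurons, which do not divide, depend on this route to clear proteins and organelles. TFEB is a transcription factor that raises the expression of many lysosomal and autophagy genes when it enters the nucleus.

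Signals are given on the log2 scale. The array medians lay between 6.98 and 7.04, and the negative control probe sets had a median of 6.98 and a 95th percentile of 11.06. Both group means exceeded that percentile for 15 of the 37 genes and lay below that median for Npc2 and Atg7, whose differences are therefore uncertain in size. All 11 measured markers of excitatory cortical neurons lay above the negative control median on every array. So did all 8 striatal, all 9 myelin and all 8 astrocyte markers, so that these levels do not single out cortex. The arrays differed in markers of neighbouring tissue. The mean level of choroid plexus markers was 7.56 and 6.79 in TCQA, against 9.01 and 8.35 in water. That of olfactory bulb markers was 6.47 and 8.60 in TCQA, compared with 6.90 and 6.63 in water. That of striatal markers was 13.39 and 12.79 in TCQA, compared with 14.42 and 13.19 in water. TCQA 2 thus stood apart in olfactory bulb markers and water 1 in striatal markers. Differing amounts of such tissue and differing expression within it cannot be told apart here.

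The comparison of TCQA with water asked whether the expression of these genes differed after a month of treatment. None of them passed the adjusted test. With limma's moderated test, 1 of the 37 genes had an unadjusted p under 0.05, that is 2.70%, where 7.37% of all 19572 transcript clusters did. This gene was Npc2, a carrier of cholesterol in the lysosomal lumen, which was lower in TCQA. With Benjamini-Hochberg adjustment over all transcript clusters 0 of the 37 genes passed in limma, as did 0 of 19572, and the adjusted p-values of the genes lay between 0.673 and 0.998. The study's filter, which adds a minimum change of 2-fold to that unadjusted p, was met by 0 of the 37 genes and by 0.664% of all transcript clusters. In bulk tissue, fewer cells of a type and less RNA per cell cannot be told apart.

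The changes were small in both directions. The intervals around them rest on the spread between these arrays and may not cover the spread between animals. Of the 37 genes 15 were higher and 22 lower in TCQA, with log2 changes between -0.58 and 0.43 and a median of -0.07, against a median of 0.0028 over all transcript clusters. Among the 35 genes whose brighter group reached the negative control median, 14 were higher and 21 lower, with a median of -0.07. The 10067 transcript clusters that passed the same filter had 5884 higher and a median of 0.05. The standard errors lay between 0.18 and 0.30. The 95% interval of the change stayed within a 2-fold change in either direction for 35 of the 37 genes. It reached beyond that on the lower side for Npc2 (-1.04 to -0.12) and for Ctsh (-1.05 to 0.40). Atg7, with both group means below the negative control median, is among the 35, and the size of its change stays uncertain. The groups did not overlap for 13 genes, 4 higher and 9 lower in TCQA, where 19.9% of all transcript clusters were higher and 19.2% lower without overlap. The difference between the groups exceeded the gap between the arrays of each group for 9 genes, or 24.3%, against 26.8% of all transcript clusters.

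**Figure D1:**
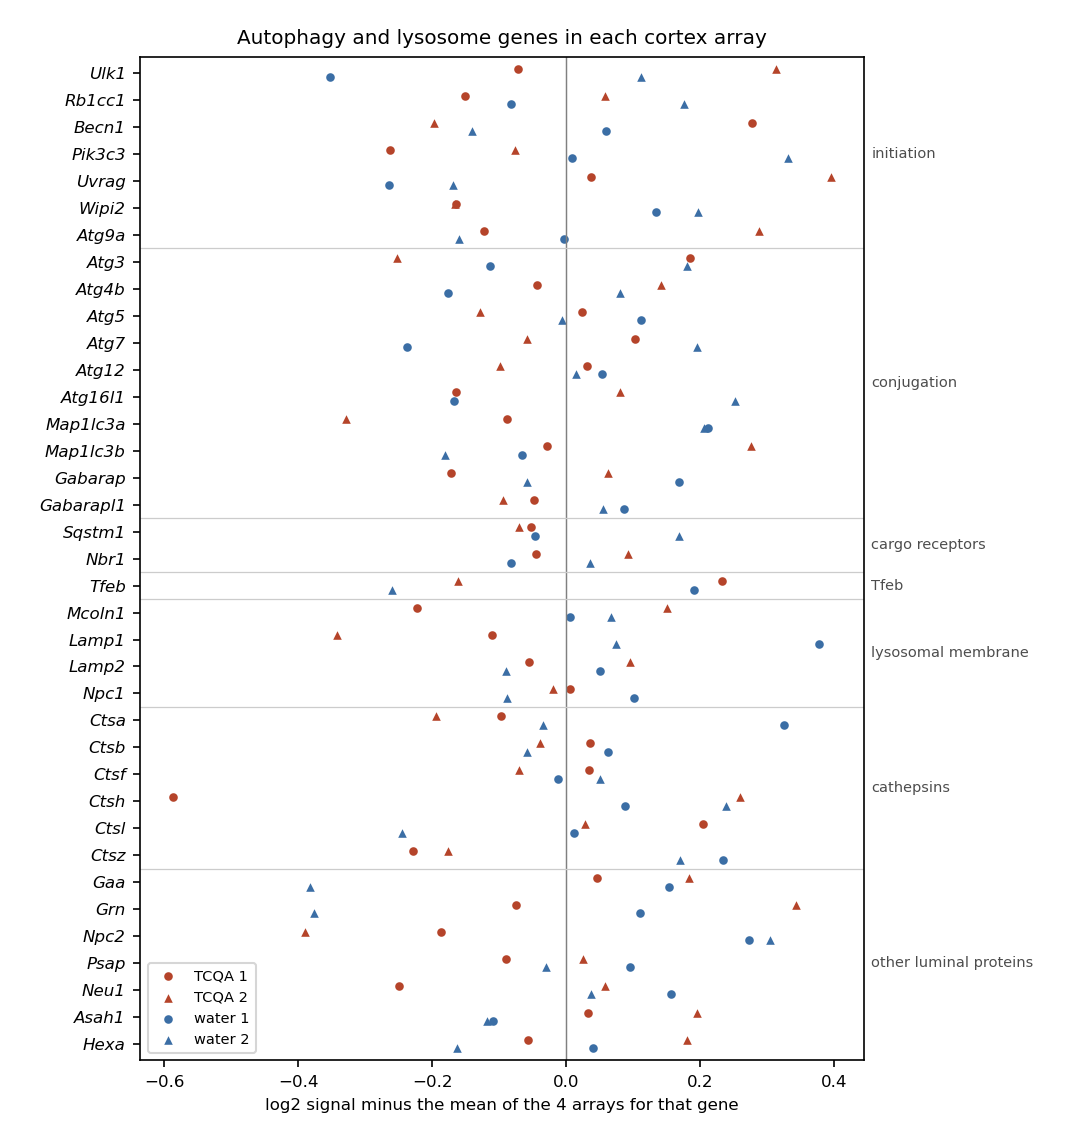
Each point is the log2 signal of a gene in 1 array, minus the mean of that gene over the 4 arrays, for the 37 measured genes ordered by role; TCQA arrays are red and water arrays blue. The colours are mixed for most genes and separate for 13, among them Npc2, Ctsz, Wipi2 and Map1lc3a with lower and Uvrag with higher values in TCQA.

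Genes that start the autophagosome lay on both sides of 0. Of the 7 genes 4 were higher and 3 lower in TCQA, with a median log2 change of 0.08, and none had an unadjusted p under 0.05. Uvrag, a Beclin-binding subunit of a form of the lipid kinase complex, had signals of 11.25 and 11.61 in TCQA, against 10.95 and 11.04 in water. Both TCQA arrays lay above both water arrays, a log2 change of 0.43 (SE 0.21, 95% interval -0.07 to 0.94, limma, unadjusted p = 0.0820). Pik3c3, the catalytic lipid kinase of the same complex, had 8.29 and 8.48 in TCQA, against 8.56 and 8.89 in water, so that it was lower without overlap, by a log2 change of -0.34 (SE 0.21, unadjusted p = 0.155). Wipi2, which binds the lipid made by that kinase and recruits the conjugation machinery, was also lower without overlap, at 11.03 in both TCQA arrays and at 11.33 and 11.39 in the water arrays (-0.33, SE 0.18, unadjusted p = 0.119). Uvrag, Pik3c3 and Wipi2 thus did not differ in the same direction, and none of these differences passed the test.

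The other initiation genes showed overlapping groups. Atg9a, the membrane protein of the vesicles that seed the autophagosome, had 12.39 and 12.80 in TCQA, against 12.51 and 12.35 in water, a log2 change of 0.16 (SE 0.22). Ulk1, the kinase that starts autophagy, differed by 0.24 (SE 0.25), Rb1cc1, its scaffold partner, by -0.09 and Becn1, the regulatory subunit of the lipid kinase complex, by 0.08.

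Among the genes of the conjugation systems and their substrates, 3 of 10 were higher and 7 lower in TCQA, with a median log2 change of -0.08 and none with an unadjusted p under 0.05. The LC3 genes lay on opposite sides. Map1lc3a had 9.80 and 9.56 in TCQA, against 10.10 and 10.09 in water, lower without overlap by a log2 change of -0.42 (SE 0.20, 95% interval -0.89 to 0.05, limma, unadjusted p = 0.0731). Map1lc3b had 12.05 and 12.35 in TCQA, against 12.01 and 11.90 in water, higher without overlap by 0.25 (SE 0.20, unadjusted p = 0.271). Whether the changes of the LC3 genes differ from each other was not tested.

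The GABARAP genes were slightly lower in TCQA, within the error of the fit. Gabarapl1, abundant in brain and a member of the same family, had 15.41 and 15.37 in TCQA, against 15.55 and 15.52 in water. The arrays differed by 0.05 within TCQA and by 0.03 within water, so that the groups did not overlap at a log2 change of -0.14 (SE 0.18, unadjusted p = 0.468). Gabarap itself differed by -0.11 with overlapping groups. Among the enzymes, Atg4b, the protease that trims the substrates, differed by 0.10, Atg7, the activating enzyme of both conjugation systems, by 0.04, and Atg3, the enzyme that transfers LC3 to lipid, by -0.07. The components of the complex that guides this transfer differed by -0.10 (Atg5), -0.07 (Atg12) and -0.08 (Atg16l1).

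Cargo receptors bind ubiquitinated cargo at one end and LC3 proteins at the other. Sqstm1, which encodes p62, had 13.44 and 13.42 in TCQA, against 13.45 and 13.66 in water. Water 2 stood above the other arrays, which lay close together, so that the groups were only just separate and the log2 change was -0.12 (SE 0.19, unadjusted p = 0.546). Nbr1, a receptor with a similar domain order, had 12.25 and 12.39 in TCQA, against 12.21 and 12.33 in water, with overlapping groups and a change of 0.05 (SE 0.19). Tfeb had 7.89 and 7.50 in TCQA, against 7.85 and 7.40 in water. The first array of each group was the higher one, and the change of 0.07 (SE 0.25) was smaller than the gap within either group. The mRNA level does not report where the TFEB protein lies in the cell.

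**Figure D2:**
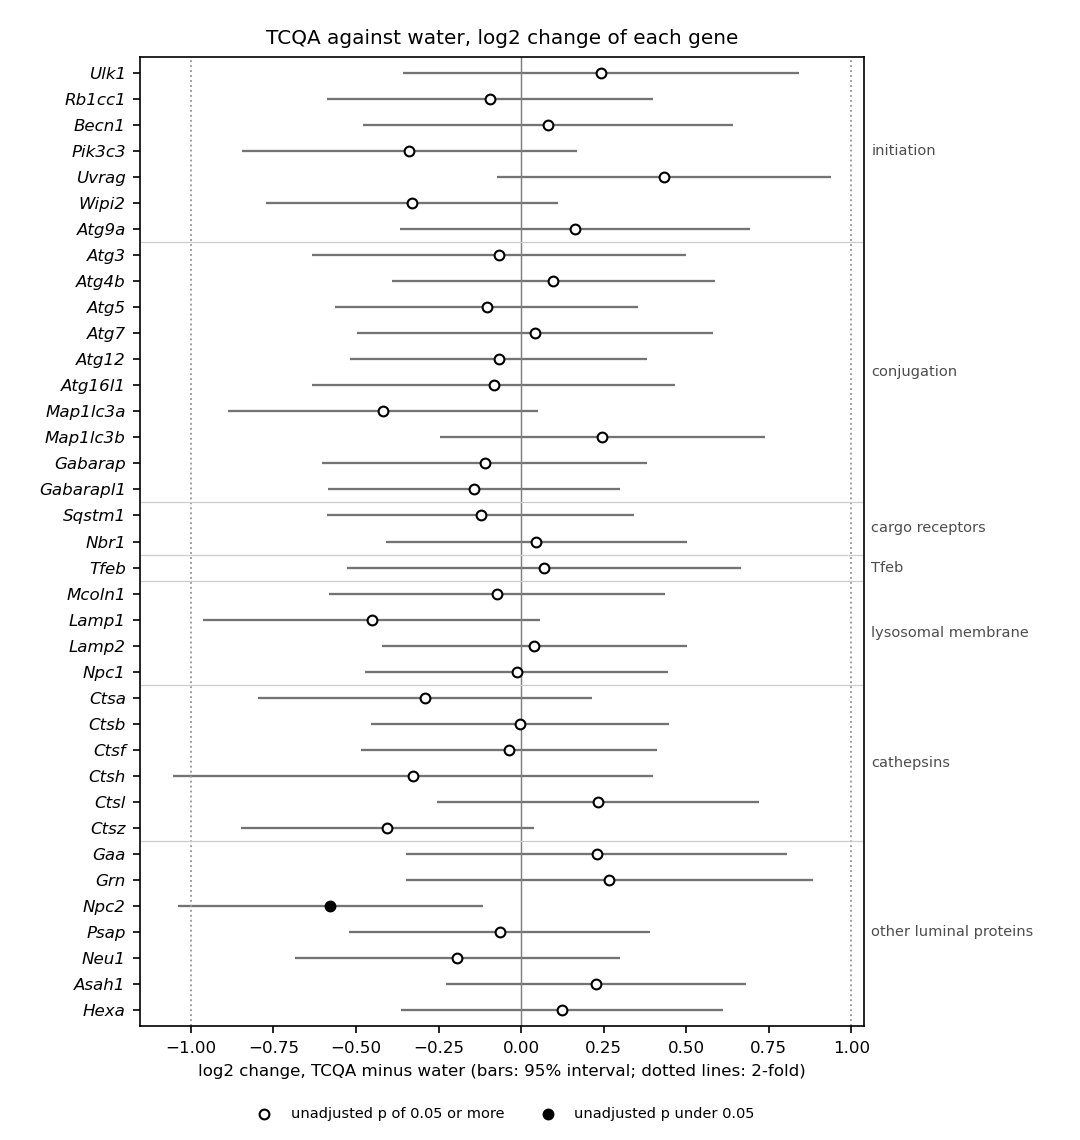
The log2 change of each gene, TCQA minus water, is plotted with its 95% interval from limma, not adjusted for multiple tests, and dotted lines mark a 2-fold change. The filled point is Npc2, the gene with an unadjusted p under 0.05, and 35 of the 37 intervals lie between the dotted lines.

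TFEB binds the CLEAR element, an E-box that is frequent near the start of lysosomal genes, and the promoters of the lysosomal genes are shown to let this element be read beside the changes. Promoter windows of 250 bases before to 50 bases after the gene start, from RefSeq on GRCm38.p6, matched 29 of the 39 genes. The motif TCACGTG, searched on both strands and therefore also as CACGTGA, was found for 7 of these 29 genes (24.1%), against 3.77% of all 32851 promoter windows, and a gene with several windows was counted once among the 29. The 6-letter core CACGTG, which the longer motif contains, was found for 10 genes (34.5%), against 7.15% of all windows. A gene with several windows has more chances of a match, so the shares per gene and per window are not like for like. A match describes letters and does not show that a factor binds there. The 150 bases before the start are given below for the motif-bearing genes with a measured lysosomal role and for the autophagy genes Atg3 and Atg7, with the 7-letter motif in capitals, and for Npc2, the gene with an unadjusted p under 0.05, whose window holds no such motif. Ctsa has more than one window, and the one with the motif is shown, which holds a further copy after the start.
Lamp1 (chr8:13159011-13159160, plus strand): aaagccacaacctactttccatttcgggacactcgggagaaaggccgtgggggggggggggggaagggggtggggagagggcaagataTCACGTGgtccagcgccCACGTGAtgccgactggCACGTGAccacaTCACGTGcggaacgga
Mcoln1 (chr8:3500369-3500518, plus strand): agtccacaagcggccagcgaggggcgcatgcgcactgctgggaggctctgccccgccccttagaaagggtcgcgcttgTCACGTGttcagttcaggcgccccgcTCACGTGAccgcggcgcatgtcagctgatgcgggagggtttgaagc
Ctsa (chr2:164833623-164833772, plus strand): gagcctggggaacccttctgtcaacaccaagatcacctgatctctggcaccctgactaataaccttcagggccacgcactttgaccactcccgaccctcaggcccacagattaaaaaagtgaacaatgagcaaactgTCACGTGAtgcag
Gaa (chr11:119267813-119267962, plus strand): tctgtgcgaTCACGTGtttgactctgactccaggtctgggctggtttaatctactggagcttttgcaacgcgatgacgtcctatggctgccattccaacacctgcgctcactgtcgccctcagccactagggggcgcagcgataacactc
Atg3 (chr16:45158679-45158828, plus strand): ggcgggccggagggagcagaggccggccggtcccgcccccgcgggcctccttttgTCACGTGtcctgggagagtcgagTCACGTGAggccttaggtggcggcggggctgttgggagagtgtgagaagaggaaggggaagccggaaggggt
Atg7 (chr6:114670946-114671095, plus strand): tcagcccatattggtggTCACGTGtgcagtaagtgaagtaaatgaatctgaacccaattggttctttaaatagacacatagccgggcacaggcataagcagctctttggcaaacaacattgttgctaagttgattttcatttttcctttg
Npc2 (chr12:84773113-84773262, minus strand): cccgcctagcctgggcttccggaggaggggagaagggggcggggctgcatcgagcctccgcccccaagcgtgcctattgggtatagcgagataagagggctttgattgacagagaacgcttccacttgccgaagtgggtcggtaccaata

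In these stretches Lamp1 holds 4 copies of the motif, with cores that begin at positions -61, -45, -28 and -15 relative to the start, and Mcoln1 and Atg3 hold 2 copies each. The measured genes with the motif did not differ in a common direction. Their log2 changes were -0.45 for Lamp1, -0.29 for Ctsa, -0.07 for Mcoln1, -0.07 for Atg3, 0.04 for Atg7 and 0.23 for Gaa, and none had an unadjusted p under 0.05.

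Lysosomal membrane proteins were represented by 4 genes, of which 1 was higher and 3 were lower in TCQA. Lamp1, a heavily glycosylated protein that lines the inner face of the membrane, had 13.39 and 13.16 in TCQA, against 13.88 and 13.58 in water. Both TCQA arrays lay below both water arrays, and the log2 change was -0.45 (SE 0.21, 95% interval -0.96 to 0.06, limma, unadjusted p = 0.0733). Lamp2, its relative, one form of which serves chaperone-mediated autophagy, had 14.33 and 14.48 in TCQA, against 14.43 and 14.29 in water, a change of 0.04 (SE 0.19) with overlapping groups. Npc1, the membrane partner of Npc2 in cholesterol export, differed by -0.01 (SE 0.19), and Mcoln1, a lysosomal calcium channel, by -0.07 (SE 0.21).

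Of the 6 measured genes in the cathepsin group, 1 was higher and 5 were lower in TCQA, with a median log2 change of -0.16 and none with an unadjusted p under 0.05. Ctsz, a carboxypeptidase, had 9.05 and 9.10 in TCQA, against 9.51 and 9.45 in water. The gap between arrays was 0.05 in TCQA and 0.06 in water, and the groups did not overlap, with a change of -0.41 (SE 0.18, 95% interval -0.85 to 0.04, limma, unadjusted p = 0.0675). Ctsl, an endopeptidase, had 9.91 and 9.74 in TCQA, against 9.72 and 9.46 in water, a change of 0.23 (SE 0.20) with no overlap. Ctsb, an abundant cysteine protease, had 15.50 and 15.42 in TCQA, against 15.52 and 15.40 in water, and its change was -0.0033 (SE 0.19, 95% interval -0.45 to 0.45).

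Ctsa, the protective protein that stabilises neuraminidase and galactosidase, differed by -0.29 (SE 0.21) without overlap, and its partner Neu1, the neuraminidase, by -0.19 (SE 0.20) with overlap. Ctsf, a cysteine protease, differed by -0.04. Ctsh, an aminopeptidase, was the gene with the widest spread: it had 6.87 in TCQA 1 and 7.72 in TCQA 2, against 7.54 and 7.69 in water, a change of -0.33 (SE 0.30). Without TCQA 2 its change was -0.75, with an unadjusted p of 0.0276 by limma and an adjusted p of 0.954, and without TCQA 1 it was 0.10.

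Among the other luminal enzymes and cofactors 4 of 7 genes were higher and 3 lower in TCQA, with a median of 0.12. Npc2 had 6.19 and 5.99 in TCQA, against 6.65 and 6.68 in water, all below the negative control median. The groups did not overlap, and the log2 change was -0.58 (SE 0.19) (limma, unadjusted p = 0.0218, adjusted p = 0.673). Npc2 kept an unadjusted p under 0.05 without TCQA 1 (-0.68) but not without TCQA 2 (-0.48, limma, unadjusted p = 0.119), water 1 (-0.59, unadjusted p = 0.0589) or water 2 (-0.56, unadjusted p = 0.0692). The share of all transcript clusters that passed this unadjusted threshold in the lower direction was 3.89%, above the 2.70% that 1 of 37 genes makes.

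Grn, the precursor of granulins, whose loss causes a lysosomal storage disease in humans, had 10.17 and 10.59 in TCQA, against 10.36 and 9.87 in water, a change of 0.27 (SE 0.26) with overlapping groups. Psap, the precursor of saposins that assist sphingolipid breakdown, had 16.17 and 16.28 in TCQA, against 16.35 and 16.23 in water, and the change of -0.07 (SE 0.19) was smaller than the gap within either group. Gaa, which degrades glycogen, differed by 0.23, at 15.19 and 15.32 in TCQA, against 15.29 and 14.76 in water, where water 2 alone was low. Asah1, the acid ceramidase, was higher without overlap, at 12.53 and 12.69 in TCQA, against 12.39 and 12.38 in water (0.23, SE 0.19, unadjusted p = 0.270). Hexa, a subunit of hexosaminidase, differed by 0.12 (SE 0.20).

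The autophagy genes and the lysosomal genes were also summarised separately. Of the autophagy genes 8 of 19 were higher, with a median log2 change of -0.07 and a range of -0.42 to 0.43, and 0 had an unadjusted p under 0.05. Of the lysosomal genes 6 of 17 were higher, with a median of -0.04 and a range of -0.58 to 0.27, and 1 had an unadjusted p under 0.05. Without water 2 the median of the autophagy genes was 0.04. After quantile normalisation the medians were -0.13 for the autophagy genes and -0.08 for the lysosomal genes. The same summaries over all transcript clusters were 50.5% higher and a median of 0.0028. With the filter at the negative control median 7 of 18 autophagy genes were higher (median -0.08) and 6 of 16 lysosomal genes (median -0.03). Of the transcript clusters that passed this filter 5884 of 10067 were higher, with a median of 0.05. The part of brightness in these values was not tested.

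**Figure D3:**
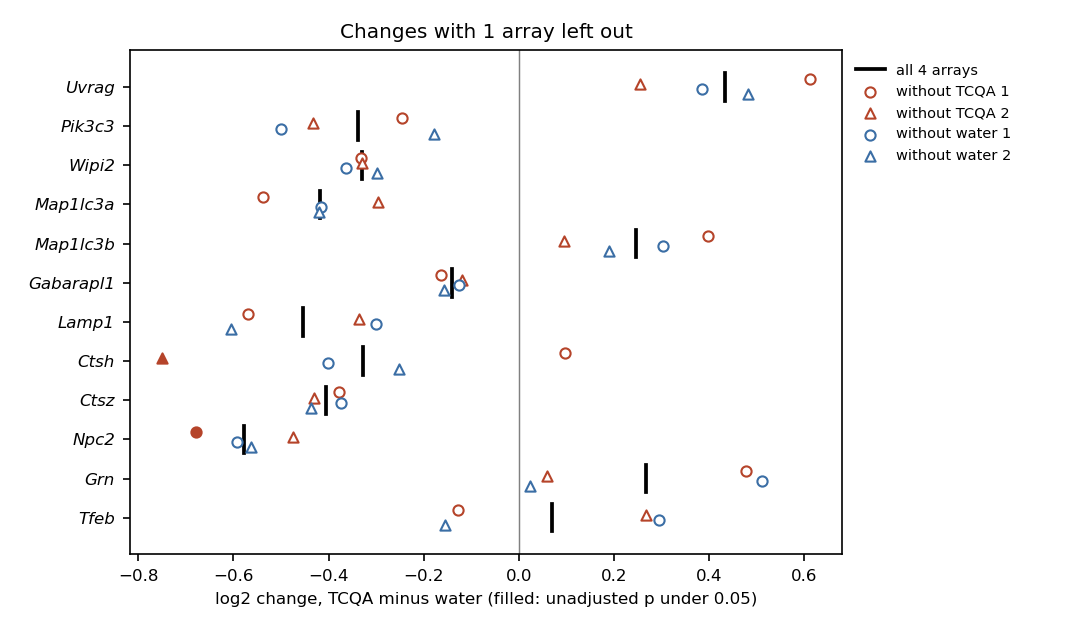
For 12 of the genes the black line is the log2 change over all 4 arrays and the symbols are the change with 1 array left out; filled symbols have an unadjusted p under 0.05. Ctsz, Wipi2 and Gabarapl1 keep nearly the same change in each fit, while Ctsh and Tfeb change sign with the array left out.

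Other genes of the pathway were read in 7 lists with 163 genes in all, of which 152 were measured. Of these 100 were higher and 52 lower in TCQA, with a median log2 change of 0.09, while 85 were higher after quantile normalisation of the arrays, with a median of 0.03. An unadjusted p under 0.05 was reached by 8 genes that were higher and 1 that was lower, where 3.48% of all transcript clusters were called higher and 3.89% lower. Among the 10067 transcript clusters whose brighter group reached the negative control median, 646 were called higher and 296 lower, 5884 were higher in TCQA and the median was 0.05. With the same filter 12 of 134 pathway genes were called higher and 1 lower, 90 were higher and the median was 0.10. More higher than lower values were thus seen among brighter transcript clusters in general, with a smaller median than that of the pathway genes. The part of brightness in the pathway values was not tested. In all, 5.92% of the 152 genes were called, against 7.37% of all transcript clusters. None passed limma's adjusted threshold. Without TCQA 2 the count of 9 became 3, without water 1 it became 4 and without water 2 it became 5.

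Among other genes of the autophagy machinery 16 of 29 were higher, with a median of 0.09. The median was 0.02 after quantile normalisation, 0.03 without TCQA 2 and 0.16 without TCQA 1. Calcoco1, a receptor for autophagy of the endoplasmic reticulum and Golgi, had 11.75 and 11.50 in TCQA, against 10.58 and 10.56 in water. The groups were far apart relative to their gaps. The log2 change of 1.05 (SE 0.20, 95% interval 0.58 to 1.53, limma, unadjusted p = 0.00134, adjusted p = 0.642) was over 2-fold. After quantile normalisation the change was 0.99, which is under 2-fold. Calcoco1 was the 1 gene of the 152 that met the study's filter, which 0.664% of all transcript clusters met. It kept an unadjusted p under 0.05 in each fit with 1 array left out, with changes between 0.93 and 1.18. Wdr45, a lipid-binding relative of Wipi2, was higher by 0.48 (SE 0.19) and Tmem41b, a lipid scramblase needed for autophagosome formation, by 0.48 (SE 0.19), and neither kept an unadjusted p under 0.05 whichever of the 4 arrays was left out, with changes of 0.39 to 0.57 and 0.42 to 0.53.

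Of the subunits of the V-ATPase, the proton pump that acidifies the lysosome and synaptic vesicles, 15 of 17 were higher in TCQA, with a median of 0.20, and 1 had an unadjusted p under 0.05. This was Atp6v0e2, a small membrane subunit, at 12.60 and 12.76 in TCQA, against 12.17 and 12.13 in water (0.53, SE 0.19, limma, unadjusted p = 0.0280). Whichever of the 4 arrays was left out, this p was lost, at changes of 0.45 to 0.62. The count of higher subunits was 10 of 17 without TCQA 2, and between 14 and 15 when any other array was left out. The median was 0.30 without TCQA 1. The count with an unadjusted p under 0.05 was 5 with an intensity trend in the variance prior, where 8.12% of all transcript clusters were called. It was 4 without the empirical Bayes step (6.75% of all) and 4 with the filter at the negative control median (9.36% of those tested). The count stayed at 1 with the variance prior over every row, array weights, quantile normalisation, median centring or the replicate number as a block. Of 11 excitatory neuron markers 9 were higher as well, with a median change of 0.36 and mean levels of 12.54 and 12.53 in TCQA, against 11.99 and 12.42 in water. Without water 1 it was 6 of 11 of these markers, at a median of 0.17. Their part in the V-ATPase values was not tested.

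Of 31 other lysosomal hydrolases and cofactors 18 were higher, at a median of 0.04, and 14 after quantile normalisation, at a median of -0.0060. With 1 array left out the median lay between 0.0035 (without TCQA 2) and 0.11 (without TCQA 1). Sgsh, a heparan sulfate sulfatase, was higher by 0.72 (SE 0.23, unadjusted p = 0.0185), with signals of 4.85 and 5.03 in TCQA, against 4.45 and 3.98 in water, all far below the negative control median. The unadjusted p was 0.05 or more when TCQA 2 (0.63) or water 2 (0.49) was left out. Gnptg, a subunit of the enzyme that tags hydrolases for the lysosome, was lower, at 10.37 and 10.13 in TCQA, against 10.71 and 10.76 in water (-0.48, SE 0.20, unadjusted p = 0.0453), and lost this p whichever of the 4 arrays was left out, at -0.60 to -0.36.

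Of 19 other lysosomal membrane proteins and channels 10 were higher, at a median of 0.02, and 8 after quantile normalisation, at a median of -0.03. With 1 array left out the median lay between -0.04 (without water 1) and 0.14 (without TCQA 2). Slc17a5, the lysosomal exporter of sialic acid, had 11.56 and 11.13 in TCQA, against 10.35 and 10.38 in water, a change of 0.98 (SE 0.22, limma, unadjusted p = 0.00361), and kept an unadjusted p under 0.05 in each fit with 1 array left out, with changes of 0.76 to 1.19. In the list of mTORC1, AMPK and TFEB regulation 22 of 30 genes were higher, with a median of 0.09, and 17 after quantile normalisation, with a median of 0.04. Deptor, an inhibitory subunit of mTOR complexes, had 8.78 and 9.35 in TCQA, against 7.90 and 8.32 in water, a change of 0.95 (SE 0.27, limma, unadjusted p = 0.0107). It lost this p without TCQA 2 (0.67) and without water 1 (0.75).

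Genes of fusion between autophagosome and lysosome were higher for 11 of 14, with a median of 0.09 (0.05 without water 2) and none with an unadjusted p under 0.05. Genes of sorting to the lysosome were higher for 9 of 14, with a median of 0.12. The median was 0.05 after quantile normalisation, 0.06 without TCQA 1 and 0.07 without TCQA 2. Vps26a, a retromer subunit, had 10.13 and 10.19 in TCQA, against 9.40 and 9.78 in water (0.57, SE 0.21, limma, unadjusted p = 0.0330), and lost this p without TCQA 1 (0.60), TCQA 2 (0.55) and water 1 (0.38).

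**Figure D4:**
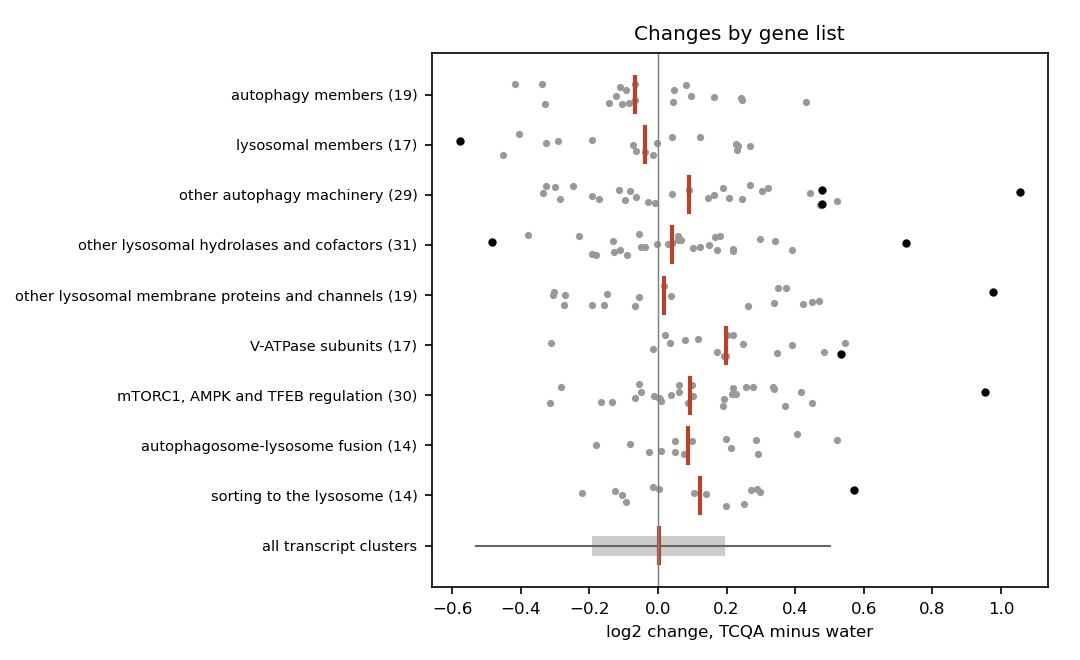
Each point is the log2 change of a gene, TCQA minus water, by list, with the number of measured genes in brackets; black points have an unadjusted p under 0.05 and red lines are medians. The bottom row gives the median, the middle 50% (grey) and the range from the 5th to the 95th percentile (line) of all transcript clusters, and most points of each list lie within that range.

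**Figure D5:**
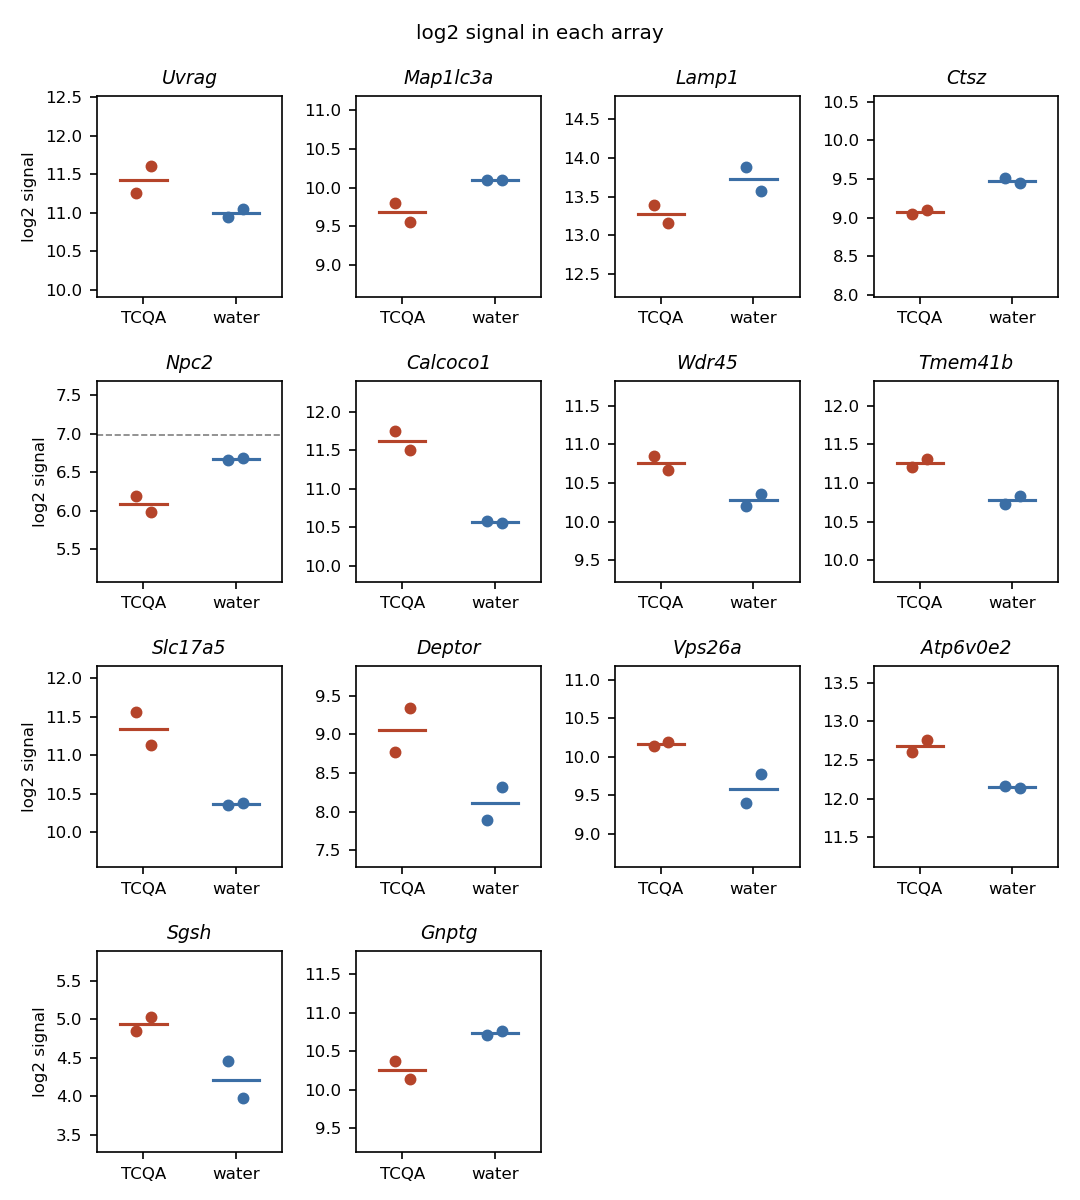
Each panel shows the log2 signal of a gene in the TCQA arrays and the water arrays with the group means as lines, on axes that all span the same number of log2 units; the dashed line is the negative control median of 6.98, which lies above the axis range of Sgsh and below that of the other panels without a line. The genes were picked for small unadjusted p-values in these data, which favours groups that do not overlap. The groups do not overlap in any of the 14 panels, against 39.2% of all transcript clusters without overlap. The separation is widest for Calcoco1 and Slc17a5.

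Lysosomal genes are abundant in microglia, the brain's resident phagocytes, so markers of these cells are given beside them. Of 14 measured microglia and macrophage markers 3 were higher and 11 lower in TCQA, with a median log2 change of -0.10. Without TCQA 2 the direction turned, with 9 higher, 5 lower and a median of 0.07, and without TCQA 1 the median was -0.28. It was -0.19 without water 2 and -0.03 without water 1. Their mean level was 8.19 and 7.80 in TCQA, against 8.11 and 7.97 in water, and both groups lay below the negative control median for 4 of them, Tmem119 and Tyrobp included. Aif1, a calcium-binding protein of microglia, was lower, at a log2 change of -0.70 (SE 0.26, limma, unadjusted p = 0.0343), and Mrc1, the mannose receptor of border macrophages, had 8.68 and 7.46 in TCQA, against 6.54 and 6.57 in water. Both water values lie below the negative control median, so the size of this difference is uncertain (limma, unadjusted p = 0.00693). All 10 measured choroid plexus and ependyma markers were lower, at a median of -1.49, and 9 of 10 were lower when TCQA 1 or water 1 was left out. Of 9 myelin markers 8 were lower, at a median of -0.40, with mean levels of 11.26 and 11.19 in TCQA, against 11.91 in water 1 and 11.29 in water 2. Without water 1, which stood above the other arrays, 6 of 9 were lower at a median of -0.10, and without water 2 the median was -0.70. It was -0.25 without TCQA 2. Of the 17 measured lysosomal genes 11 were lower, Npc2, Ctsz and Lamp1 included, and 6 were higher, Grn, Ctsl and Asah1 included. The part of these marker differences in the values of the lysosomal genes was not tested.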

How the data were processed

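The authors deposited a log2 signal for each transcript cluster, computed by SST-RMA in Transcriptome Analysis Console 4.0.2 from cDNA made from 100 ng of RNA, per the labels' design text. RMA and limma are the tools in the submitters' processing notes. Such values are background-corrected and normalised between arrays, so they carry no depth, and precision is limited by the number of arrays. The array medians of the rows with a symbol still ran from 6.98 to 7.04. A genome build for the array annotation was not stated. The table holds 28846 rows, of which 19572 have 1 gene symbol in the platform annotation, 0 several and 9274 none (control probe sets among them). All 19572 gene identifiers matched RefSeq.

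The 19572 rows were fitted with limma 3.58.1 in R 4.3.3 (lmFit and eBayes, no trend, no block, 2-sided), with Benjamini-Hochberg adjustment across the whole set. Intervals are 95% intervals from the same fit. The function was tested on simulated data. A symbol's row of highest mean was used.

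The members and lists were chosen with earlier results of these data known. All members are named. Values in every array were set to be given for members with an unadjusted p under 0.05, for the largest rise, largest fall and highest signal of each role, and for Tfeb, and in each other list for up to 4 genes with an unadjusted p under 0.05. Knowledge of their values led to the naming of Ctsh, Gaa, Asah1, Wipi2 and the single markers. The study's detection filters were not applied. Alternatives changed the variance prior, array weights, normalisation, a dim-signal filter, rows per symbol, the replicate number as a block and leaving out each array. Figures used matplotlib 3.10.9.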

Additional observations from a re-analysis of the deposited data

How the results depend on the processing

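With 1 of 37 genes at an unadjusted p under 0.05, the count became 4 with an intensity trend in the variance prior (Uvrag, Map1lc3a, Lamp1 and Npc2, with 8.12% of all transcript clusters called), 4 without the empirical Bayes step (Wipi2, Gabarapl1, Ctsz and Npc2, 6.75%), 3 after quantile normalisation (Lamp1, Ctsz and Npc2, 6.88%) and 3 with the filter at the negative control median, which left out Npc2 (Map1lc3a, Lamp1 and Ctsz, 9.36%). It lay between 0 and 1 with 1 array left out, where a lone array is assumed to vary like the other group. The count of all transcript clusters was 1443, fell to 942 with the filter, which tests 10067, and lay between 1011 and 1735 with 1 array left out. The count of other pathway genes was 9, became 16 with the trend and 15 without the empirical Bayes step, and lay between 3 and 11 with 1 array left out. With the variance prior over every row, control probe sets included, 984 of 19572 transcript clusters (5.03%) and 1 of the 37 genes were called. Of the other pathway genes 6 were called in that fit, with Wdr45, Tmem41b and Gnptg no longer among them. These alternatives for the other pathway genes were chosen after seeing the data. The median log2 change of the autophagy genes lay between -0.0485 and 0.0359 with 1 array left out, and that of the lysosomal genes between -0.06 and -0.0021. After quantile normalisation Nbr1 stood at -0.010 and Lamp2 at -0.024. With 1 array left out Atg9a ranged from -0.0408 to 0.370, Nbr1 from -0.0217 to 0.115, Tfeb from -0.16 to 0.30, Lamp2 from -0.036 to 0.116 and Ctsb from -0.0638 to 0.0572. The cause of these shifts was not tested. With the replicate number as a block 1 of the 37 genes, 1497 of all transcript clusters and 7 of the other pathway genes were called. Same-numbered arrays did not deviate together over all transcript clusters (correlation of -0.0032). A single value over all of them cannot decide whether the numbers pair the samples, because sets of genes can differ. Array 1 lay above array 2 for 8 of 8 striatal markers in both groups. For thalamus markers this held for 8 of 8 in water and 1 of 8 in TCQA.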

Other observations

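Water 1 lay above water 2 for most lysosomal genes. TCQA 1 lay above TCQA 2 for 7 of 17 lysosomal genes and for 9 of 19 autophagy genes, while water 1 lay above water 2 for 13 of 17 and 8 of 19. Over all transcript clusters water 1 lay above water 2 for 9951 of 19572. The gap between the arrays of a group had a median of 0.19 in TCQA and of 0.16 in water over the 37 genes, against 0.22 in TCQA and 0.24 in water over all transcript clusters. Among the 37 genes Ctsh, with 6.87 in TCQA 1 and 7.72 in TCQA 2, had the widest gap in the TCQA group, and Gaa, with 15.29 in water 1 and 14.76 in water 2, the widest in the water group.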
